A study of Mus musculus with 12 samples.

Results

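The Polycomb complex genes were 33 listed genes for the subunits and partners of Polycomb repressive complexes 1 and 2 (PRC1 and PRC2). They were found by matching the gene IDs of the count table to symbols of the GENCODE mouse annotation. All 33 were found among the 51467 genes of the table, and all 33 passed the filter on low counts that left 14731 genes for testing. The genes were followed through the ESC to EpiLC transition, in which naive mouse embryonic stem cells (ESCs) become epiblast-like cells (EpiLCs). ESCs were grown in Knockout DMEM with 15% fetal bovine serum, the cytokine LIF and the 2i inhibitors PD0325901 and CHIR99021. EpiLCs were the same cells harvested about 56 h after LIF and 2i were withdrawn, which was done 24 h after plating. Before RNA extraction all cells were pulsed for 30 min with 500 µM of 4-thiouridine (4sU), which is built into new RNA. RNA made during the pulse was biotinylated and captured (4sU libraries, nascent RNA), or the unselected RNA was depleted of ribosomal RNA (total libraries, called mRNA level below). Each of the 4 groups had 3 libraries. Per the methods of the study the cells were of 1 ESC line, which carries fluorescent reporters, so the results hold for that line.

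Polycomb proteins keep developmental genes silent. PRC2 methylates lysine 27 of histone H3 through the alternative enzymes Ezh1 and Ezh2, held by Eed and Suz12. PRC1 attaches ubiquitin to histone H2A through Ring1 or Rnf2, paired with 1 of several PCGF proteins. Canonical PRC1 contains a CBX protein that reads the PRC2 mark and a PHC protein that compacts chromatin, whereas variant PRC1 contains Rybp or Yaf2 in place of CBX. In pluripotent cells these complexes cover the CpG-rich promoters of genes for later lineages.

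Gene counts summed to between 3097693 and 5385644 reads in the 4sU libraries and between 9300845 and 21975684 in the total libraries, and nascent values are the less precise for it. The labels fitted the markers, since 8 naive ESC markers summed to between 3456 and 3739 CPM (TMM-adjusted counts scaled to 1e6 reads of the library) in ESC total RNA and to between 315 and 326 in EpiLC total RNA. The 6 EpiLC markers summed to between 262.0 and 309 CPM in ESC and to between 1574 and 1900 in EpiLC total RNA. Dnmt3b held most of the latter sum, with a mean of 1290 CPM, and Lef1 did not pass (limma-voom adjusted p = 0.101). The 4 shared pluripotency markers summed to between 1743 and 2127 CPM in ESC and to between 1809 and 1852 in EpiLC total RNA. Their mean levels did not move alike, as Sox2 went from 481 to 41.1 CPM and Pou5f1 from 935 to 550. Lin28a went from 304 to 965 CPM and Sall4 from 258 to 268. Marker sums of other cells were low and not equal between the cell types. In total RNA 8 fibroblast markers summed to between 11.3 and 15.5 CPM in ESC and to between 16.3 and 20.8 in EpiLC, with Dcn and Postn at 0 reads in all ESC and Lum at 0 in all EpiLC total libraries. The 6 primitive endoderm markers summed to between 5.04 and 11.9 and to between 18.2 and 21.3 CPM, in the same order. The 7 markers of the primitive streak and later germ layers summed to between 35.0 and 38.8 and to between 53.3 and 57.7 CPM. The 5 markers of two-cell-like cells summed to between 9.39 and 13.8 and to between 10.8 and 17.3 CPM. Members of a list did not all move alike in mean total RNA. From ESC to EpiLC, Dcn went from 0 to 4.81 CPM and Col1a2 from 0.157 to 4.26, but the fibroblast marker Pdgfrb from 8.54 to 2.02. Among endoderm markers Dab2 went from 0.648 to 11.1 CPM and Gata4 from 2.87 to 5.48. Sox17 went from 1.63 to 0.0663 CPM and Gata6 from 0.458 to 0.168. The part of such cells in the results was not tested. In bulk RNA, fewer cells with a transcript and less transcript per cell cannot be told apart.

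The third ESC replicate stood apart. For 24 of the 33 genes in ESC total RNA, and for 18 of 33 in ESC 4sU RNA, replicate 3 lay farthest from the mean of the other libraries, against 9 of 33 and 14 of 33 in EpiLC total and 4sU RNA. The median SD of log2 CPM over the genes was 0.15 in ESC total and 0.19 in ESC 4sU RNA, and 0.07 and 0.08 in the EpiLC groups. Some cell type markers set replicate 3 apart as well. In ESC total replicates 1, 2 and 3, Lin28a had 410, 369 and 134 CPM, Tfcp2l1 1115, 1030 and 1475, and Otx2 2.55, 2.72 and 5.90. The naive marker Zfp42 was closer together, at 378, 405 and 393 CPM. Results are therefore also given without both ESC replicate 3 libraries where this changes them. That replicate was left out because it stood apart in these same genes, which narrows the spread that remains. Adjusted p-values of that fit can thus be too low, and a gene that passes in it alone is described, not shown to change. The study calls its replicates biological, and the labels do not say whether they were separate cultures, so p-values measure the spread between these libraries.

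A gene was called changed in limma-voom at an adjusted p under 0.05 and a change over 2-fold. Of the 33 Polycomb genes 1 was called higher in mRNA level and 3 were called lower in EpiLCs, which is 12.1%, against 27.6% of all genes tested. By direction, the background was 16.3% called higher and 11.2% called lower. The gene that rose was Yaf2 (chr15:93284278-93336808, minus strand, GRCm38), and those that fell were Mtf2 (chr5:108065742-108109004, plus), Eed (chr7:89954654-89980983, minus) and Cbx8 (chr11:119036305-119040969, minus). In nascent RNA 1 gene was called higher (Yaf2) and 2 were called lower (Mtf2 and Bmi1, the latter at chr2:18677018-18686629, plus), or 9.09%, against 25.5% of all genes (11.9% higher, 13.5% lower). The share of called Polycomb genes was thus below the background in both assays, and no test of this difference was made. The median log2 change of the 33 was -0.02 in mRNA and 0.01 in nascent RNA, where the medians of all genes were 0.02 and -0.09.

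Smaller changes were common. With the adjusted p alone, 10 Polycomb genes were higher and 13 lower in mRNA level, or 69.7%, against 63.5% of all genes (31.4% higher, 32.1% lower). In nascent RNA 8 were higher and 9 lower, or 51.5%, against 52.5% (23.7% higher, 28.8% lower). The ESC and EpiLC libraries did not overlap for 24 of the 33 genes in total RNA (68.6% of all genes) and for 20 in 4sU RNA (60.7% of all genes). Of the 33 genes, 14 (42.4%) passed the adjusted p in both assays, each with the same sign in both, 9 passed it in total RNA alone, 3 in 4sU RNA alone and 7 in neither. Over all genes tested 42.2% passed in both assays in 1 direction, 0.591% in opposite directions, 20.7% in total RNA alone, 9.68% in 4sU RNA alone and 26.8% in neither. Each labelled RNA extract was split into a 4sU and a total part, so the same sign in both is not independent evidence.

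**Figure D1:**
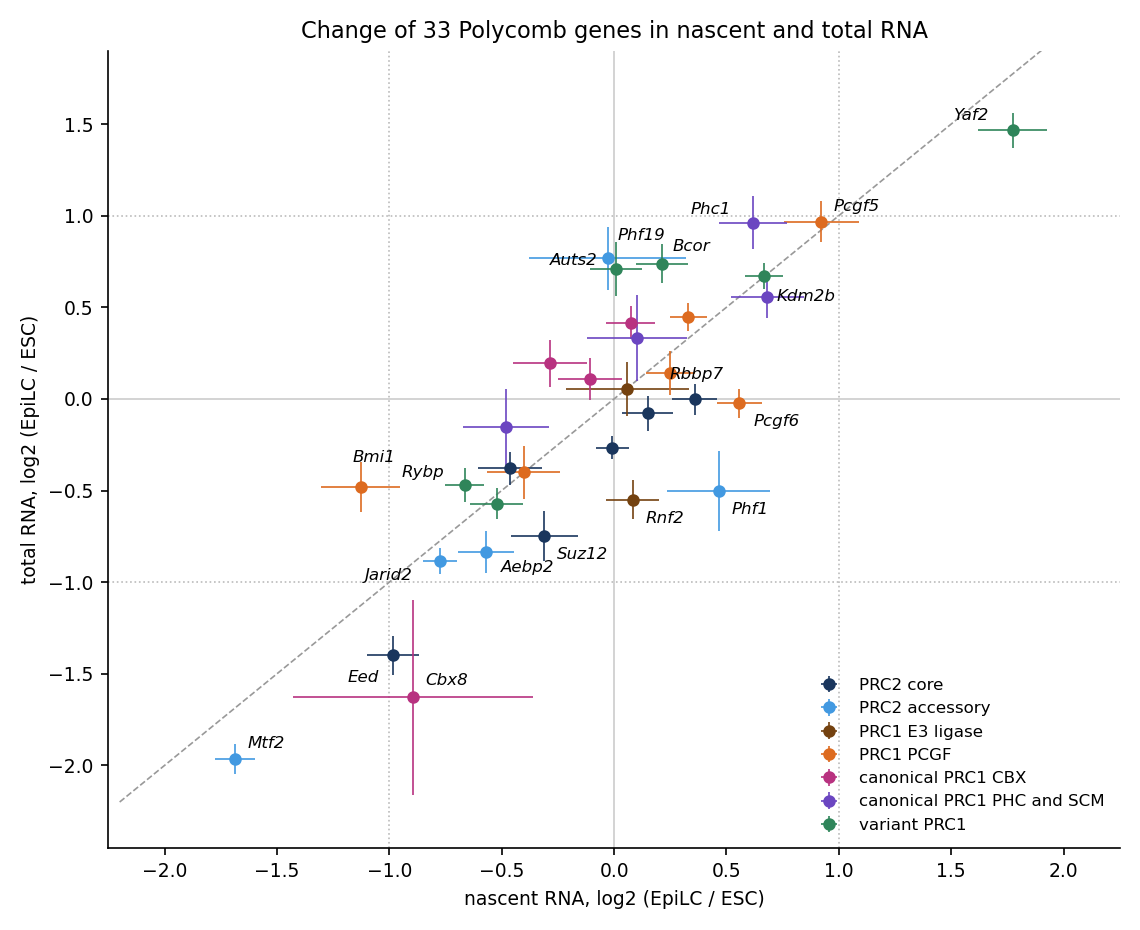
Change of the 33 Polycomb genes in nascent RNA (x axis, log2 EpiLC over ESC, 4sU libraries) and in mRNA level (y axis, log2 EpiLC over ESC, total libraries), coloured by the role of the protein. Points are limma-voom estimates from 3 libraries per group, bars are standard errors, dotted lines mark a 2-fold change and the dashed line marks equal change; Yaf2 lies alone at the upper right and Mtf2 at the lower left.

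Among the PRC2 core genes, none rose in mRNA level. With the adjusted p alone 4 of the 6 fell (Eed, Suz12, Ezh1 and Rbbp4), where 32.1% of all genes did, and Ezh2 and Rbbp7 did not pass. The core was not tested against that share. Eed, the subunit that binds the methylated histone and stimulates the enzyme, had 270, 261 and 229 CPM in the ESC total libraries and 96.5, 93.6 and 98.3 in the EpiLC total libraries. The EpiLC libraries lay close together and well below each ESC library. The log2 change was -1.40 ± 0.11 (SE, n = 3 per group; limma-voom adjusted p = 3.47e-08). In 4sU RNA Eed had 286, 252 and 200 CPM in ESC and 127, 120 and 124 CPM in EpiLC, without overlap. Its nascent change of -0.98 ± 0.12 (limma-voom adjusted p = 7.51e-06) fell just short of 2-fold. Without both ESC replicate 3 libraries it was -1.14 and past 2-fold.

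Suz12, the scaffold of PRC2, had 275, 290 and 440 CPM in ESC and 194, 196 and 191 CPM in EpiLC total RNA. Its ESC replicate 3 was far above the others, yet all ESC libraries were above all EpiLC libraries. The log2 change was -0.75 ± 0.14 (limma-voom adjusted p = 2.52e-04), and -0.56 without both ESC replicate 3 libraries. The nascent change was -0.31 (limma-voom adjusted p = 0.0940), and -0.42 with an adjusted p of 6.60e-06 without those libraries. The main methyltransferase gene Ezh2 was near level, with 133, 138 and 167 CPM in ESC and 138, 138 and 134 CPM in EpiLC total RNA. Its 95% interval of the log2 change ran from -0.28 to 0.12 (limma-voom adjusted p = 0.474). Ezh1, the enzyme more typical of resting cells, was lower in both assays, at -0.38 in mRNA level and -0.46 in nascent RNA. The histone-binding paralogues Rbbp4 and Rbbp7, shared with other chromatin complexes, had log2 changes of -0.27 (Rbbp4) and near 0 (Rbbp7, 95% interval -0.19 to 0.18) in mRNA level and of -0.01 and 0.36 in nascent RNA. Of these the mRNA change of Rbbp4 and the nascent change of Rbbp7 passed the adjusted p.

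The accessory subunits decide which form PRC2 takes. Mtf2, Phf1 and Phf19 are the Polycomb-like proteins of PRC2.1, of which Mtf2 binds unmethylated CpG-rich DNA, while Jarid2 and Aebp2 belong to PRC2.2. Mtf2 fell more than any other of the 33 genes in both assays. It had 871, 876 and 850 CPM in ESC and 215, 230 and 221 CPM in EpiLC total RNA. In 4sU RNA it had 860, 805 and 670 CPM in ESC and 241, 233 and 250 CPM in EpiLC. Each ESC library was far above each EpiLC library in both assays. The log2 changes were -1.96 ± 0.08 in mRNA level (limma-voom adjusted p = 9.34e-11) and -1.69 ± 0.09 in nascent RNA (limma-voom adjusted p = 2.82e-09). Per exonic length, Mtf2 had the highest mRNA level of the 33 genes in ESC (213.2 RPKM) and rank 4 in EpiLC (54.7 RPKM).

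Jarid2 and Aebp2 fell together in both assays without reaching 2-fold. Jarid2 had 303, 316 and 314 CPM in ESC and 173, 164 and 168 CPM in EpiLC total RNA, a log2 change of -0.89 ± 0.07. Aebp2 had 159, 154 and 211 CPM in ESC and 95.2, 96.3 and 97.2 CPM in EpiLC total RNA, a log2 change of -0.83 ± 0.12. Neither overlapped between the cell types, and the nascent changes were -0.78 and -0.57. Phf19 went the other way in mRNA level, with 5.85, 6.49 and 6.19 CPM in ESC and 11.5, 10.7 and 9.54 CPM in EpiLC total RNA (log2 change 0.77 ± 0.17, limma-voom adjusted p = 1.35e-03). Its 4sU libraries overlapped, at 2.45, 5.90 and 5.97 CPM in ESC and 3.53, 5.51 and 3.86 CPM in EpiLC. These rest on 12 to 33 reads per 4sU library. Phf1 had 6.32, 5.13 and 5.41 CPM in ESC and 5.13, 3.22 and 3.78 CPM in EpiLC total RNA, and 9.81, 8.41 and 9.76 CPM in ESC and 15.8, 9.54 and 14.5 CPM in EpiLC 4sU RNA. Its log2 changes of -0.50 in mRNA level and 0.47 in nascent RNA had opposite signs, and neither passed the test (limma-voom adjusted p = 0.0574 and 0.105). Without both ESC replicate 3 libraries the mRNA change of Phf1 passed, at -0.53 (limma-voom adjusted p = 0.0365).

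**Figure D2:**
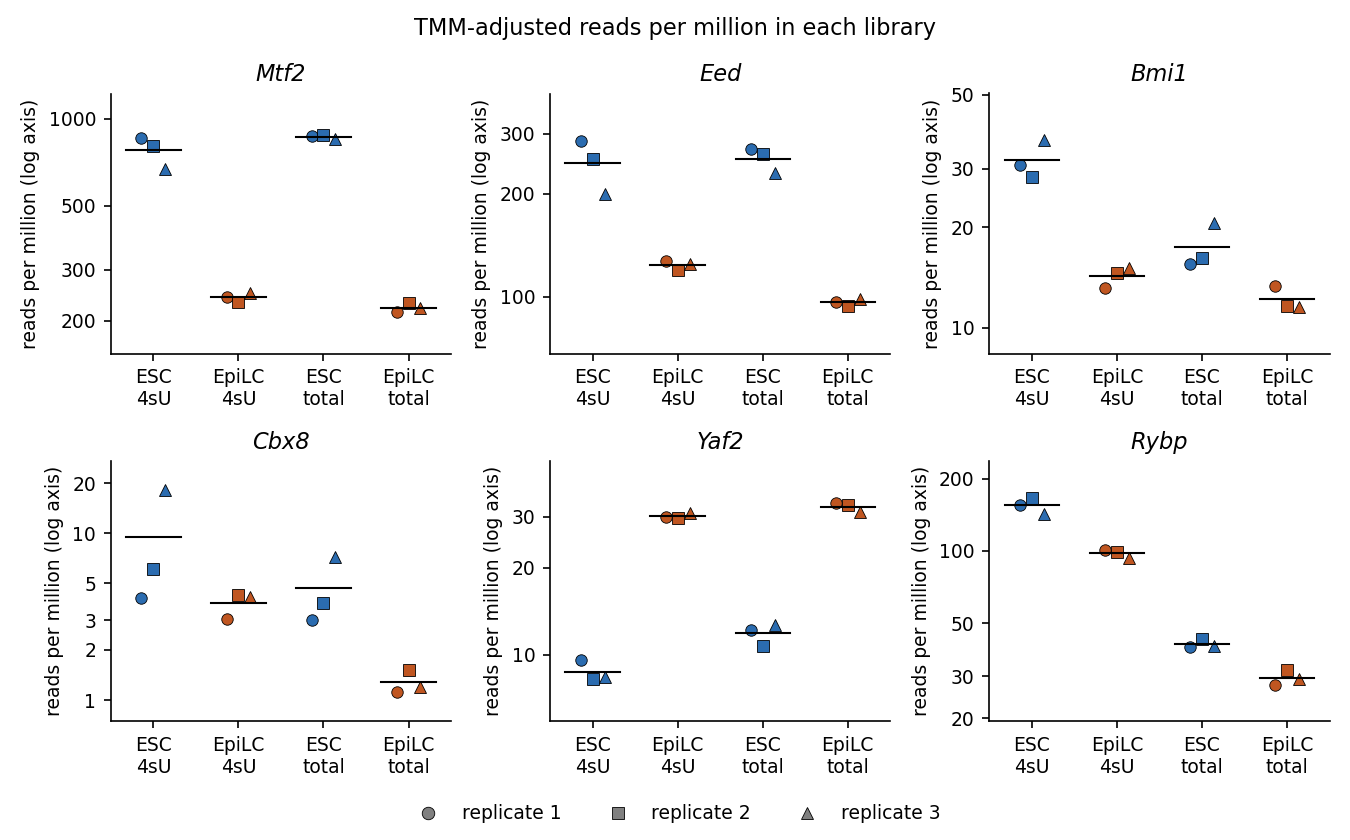
TMM-adjusted CPM (y axis, log scale) in each of the 12 libraries for the 5 Polycomb genes called changed in total or 4sU RNA and for Rybp, the paralogue of Yaf2. Symbols mark replicates 1 to 3, blue is ESC, orange is EpiLC and the lines are means of 3 libraries; Mtf2, Eed and Yaf2 separate the cell types widely in both assays, while ESC replicate 3 stands high for Cbx8.

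Polycomb complexes are drawn to CpG-rich promoters, and several of their own genes have such promoters. RefSeq entries (build GRCm38.p6) existed for 28 of the 33 genes, and for 26 an entry lay within 1000 bases of the outermost annotated start. Yaf2 had no entry. In the 250 bases before the start, these 26 promoters held a median of 20.5 CG dinucleotides (range 1 to 45). The median over 32817 promoters was 6, and 24 of the 26 were above it. Unlike the 26, the 32817 were not limited to genes tested here or to 1 entry per gene. Polycomb promoters were not compared with those of the other tested genes. The bases before the start of the genes called lower are shown so that the CG content can be seen. They run 5′ to 3′ on the strand of the gene, end before the outermost GENCODE M21 exon, and have each CG in capitals.
Mtf2, chr5:108065424-108065673, plus strand: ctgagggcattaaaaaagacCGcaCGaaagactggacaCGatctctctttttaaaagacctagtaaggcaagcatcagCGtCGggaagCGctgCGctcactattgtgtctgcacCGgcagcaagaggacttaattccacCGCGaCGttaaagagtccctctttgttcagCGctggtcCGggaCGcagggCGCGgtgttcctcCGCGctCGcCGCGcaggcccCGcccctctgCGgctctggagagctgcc
Eed, chr7:89980984-89981226, minus strand: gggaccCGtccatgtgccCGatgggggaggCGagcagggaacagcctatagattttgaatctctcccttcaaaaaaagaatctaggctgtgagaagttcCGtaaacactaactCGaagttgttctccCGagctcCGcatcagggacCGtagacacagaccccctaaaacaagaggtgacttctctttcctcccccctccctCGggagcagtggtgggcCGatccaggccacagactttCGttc
Bmi1, chr2:18676768-18677017, plus strand: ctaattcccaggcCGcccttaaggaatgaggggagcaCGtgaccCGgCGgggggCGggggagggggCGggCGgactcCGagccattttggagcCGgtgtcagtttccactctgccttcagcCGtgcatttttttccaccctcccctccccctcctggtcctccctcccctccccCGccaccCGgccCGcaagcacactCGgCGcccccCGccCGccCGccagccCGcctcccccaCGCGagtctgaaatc
Cbx8, chr11:119040970-119041163, minus strand: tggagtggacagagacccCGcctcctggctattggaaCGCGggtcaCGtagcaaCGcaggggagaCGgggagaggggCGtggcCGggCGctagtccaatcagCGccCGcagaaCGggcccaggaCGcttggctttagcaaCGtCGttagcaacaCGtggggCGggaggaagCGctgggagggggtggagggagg
The CG count was 23 in the Mtf2 stretch, 11 in Eed, 21 in Bmi1 and 18 in Cbx8. At least as many CG as in the full 250 bases of each gene occurred in 13.3% of all promoters for Mtf2, 33.5% for Eed, 16.3% for Bmi1 and 14.8% for Cbx8.

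Short words were counted in the same 250 bases on both strands. The GC box GGGCGG, which SP and KLF factors bind, occurred in 18 of the 26 Polycomb promoters (69.2%) and in 32.7% of all promoters, and it overlaps CG by its own letters. The E-box CACGTG occurred in 7 (26.9%, against 6.02% of all), among them Bmi1 and Cbx8. It contains CG as well, as does the ETS core, and its share was not tested apart from the CG content of these promoters. The CCAAT box CCAAT occurred in 7 (26.9%, against 33.8%), and the ETS core CCGGAAG in 0 (against 6.91%). These counts describe letters in a window and no binding was measured.

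Of the catalytic partners of PRC1, Rnf2 is the main ubiquitin ligase of ESCs and Ring1 its paralogue. Rnf2 had 218, 209 and 193 CPM in ESC and 144, 137 and 143 CPM in EpiLC total RNA. The libraries of the cell types were apart, with a log2 change of -0.55 ± 0.11 (limma-voom adjusted p = 3.68e-04). In 4sU RNA Rnf2 had 163, 185 and 123 CPM in ESC and 166, 160 and 171 CPM in EpiLC, and these overlapped (log2 change 0.08 ± 0.12). Ring1 had 11.01, 11.1 and 13.2 CPM in ESC and 10.4, 12.4 and 13.02 CPM in EpiLC total RNA. Its libraries overlapped in both assays, and the 95% interval of its mRNA change ran from -0.26 to 0.37.

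The PCGF proteins define 6 classes of PRC1. Pcgf2 and Bmi1 (PCGF4) are found in canonical PRC1, Pcgf1, Pcgf3, Pcgf5 and Pcgf6 in variant PRC1. Bmi1 was called lower in nascent RNA, with 30.9, 28.3 and 36.6 CPM in ESC and 13.2, 14.6 and 15.1 CPM in EpiLC 4sU RNA. In total RNA it had 15.5, 16.2 and 20.6 CPM in ESC and 13.4, 11.7 and 11.5 CPM in EpiLC. The gap between the cell types was wide in 4sU and narrow in total RNA. The log2 change was -1.13 ± 0.17 in nascent RNA (limma-voom adjusted p = 9.20e-05) and -0.48 ± 0.14 in mRNA level (limma-voom adjusted p = 6.14e-03). The nascent change was -0.98 without ESC 4sU replicate 3 and -0.998 without EpiLC 4sU replicate 1, short of 2-fold in both, though the adjusted p held.

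Pcgf5 rose to about the same extent in both assays. It had 11.5, 11.7 and 14.9 CPM in ESC and 26.0, 22.7 and 24.1 CPM in EpiLC total RNA, and 14.1, 13.1 and 11.7 CPM in ESC and 23.3, 27.1 and 23.4 CPM in EpiLC 4sU RNA. No library overlapped. The log2 changes were 0.97 ± 0.11 (limma-voom adjusted p = 3.17e-06) and 0.92 ± 0.17 (limma-voom adjusted p = 3.42e-04). The mRNA change passed 2-fold in 5 other settings, such as 1.05 without both ESC replicate 3 libraries. Pcgf3 rose by 0.45 in mRNA level and 0.33 in nascent RNA, with 94.2, 92.8 and 95.4 CPM in ESC and 129, 129 and 127 CPM in EpiLC total RNA.

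Pcgf1 was lower in mRNA level, with 8.05, 7.80 and 7.77 CPM in ESC and 5.91, 5.69 and 6.26 CPM in EpiLC total RNA (log2 change -0.40, limma-voom adjusted p = 0.0249). Its nascent change of -0.40 did not pass (limma-voom adjusted p = 0.0511). Pcgf6, the PCGF protein of the complex on germline genes, had 54.2, 61.4 and 56.9 CPM in ESC and 90.5, 82.0 and 81.6 CPM in EpiLC 4sU RNA. In total RNA it had 94.3, 97.1 and 112 CPM in ESC and 95.7, 99.2 and 101 CPM in EpiLC. The rise was thus in nascent RNA (log2 change 0.56 ± 0.10, limma-voom adjusted p = 3.22e-04), while the mRNA change had a 95% interval from -0.20 to 0.15. Pcgf2 did not pass in either assay, at 0.14 in mRNA level and 0.25 in nascent RNA.

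Among the CBX genes of canonical PRC1, Cbx8 was the least abundant and the one called changed. It had 3.01, 3.83 and 7.18 CPM in ESC and 1.12, 1.52 and 1.19 CPM in EpiLC total RNA, or 52, 76 and 73 reads against 10, 16 and 12. In 4sU RNA it had 4.09, 6.08 and 18.2 CPM in ESC and 3.06, 4.24 and 4.15 CPM in EpiLC. The total libraries did not overlap, the 4sU libraries did, and ESC replicate 3 was highest in both assays. The mRNA change was -1.63 ± 0.53 (limma-voom adjusted p = 0.0151). It was -1.39 without both ESC replicate 3 libraries and still called. Without EpiLC total replicate 1 or 3 the adjusted p was 0.0504 and 0.0518, so the call rests on them. The nascent change of -0.89 did not pass (limma-voom adjusted p = 0.175), but was called at -1.25 by edgeR's quasi-likelihood test (adjusted p = 0.0485) and at -1.23 by DESeq2 (adjusted p = 0.0376). It rested on ESC 4sU replicate 3: the nascent change of Cbx8 was -0.34 (limma-voom adjusted p = 0.544) without that library and -0.43 (limma-voom adjusted p = 0.233) without both ESC replicate 3 libraries.

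Cbx2 lies 5.03 kb from Cbx8 on chromosome 11, on the other strand. It had 51.3, 52.3 and 62.6 CPM in ESC and 60.8, 63.9 and 63.5 CPM in EpiLC total RNA, which overlapped. Its mRNA change was 0.19 (limma-voom adjusted p = 0.197) and its nascent change -0.29 (limma-voom adjusted p = 0.160). Without both ESC replicate 3 libraries the mRNA change of Cbx2 passed, at 0.27 (limma-voom adjusted p = 2.70e-03). Cbx7, the main CBX protein of naive ESCs, had 160, 167 and 119 CPM in ESC and 158, 163 and 159 CPM in EpiLC total RNA. The 95% interval of its mRNA change ran from -0.14 to 0.36. The nascent change of Cbx7 was -0.11, and without both ESC replicate 3 libraries it was -0.25 and passed (limma-voom adjusted p = 9.78e-03). Cbx6, which lies 81.1 kb from Cbx7 on chromosome 15, had 76.3, 76.7 and 62.5 CPM in ESC and 100.1, 95.7 and 92.4 CPM in EpiLC total RNA. It rose by 0.42 ± 0.09 (limma-voom adjusted p = 1.06e-03), with no passing change in nascent RNA (0.07).

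PHC proteins polymerize and cluster canonical PRC1. Phc1 rose to just under 2-fold in mRNA level, with 143, 149 and 161 CPM in ESC and 279.8, 289 and 311 CPM in EpiLC total RNA. In 4sU RNA it had 333, 318 and 191 CPM in ESC and 435, 410.1 and 417.5 CPM in EpiLC. ESC 4sU replicate 3 was low, and no library overlapped. The log2 changes were 0.96 ± 0.14 (limma-voom adjusted p = 3.82e-05) and 0.62 ± 0.15 (limma-voom adjusted p = 3.43e-03), the latter 0.35 without both ESC replicate 3 libraries. Phc1 went from rank 12 to rank 3 of the 33 in mRNA level per length (35.0 to 68.1 RPKM) and was first in EpiLC 4sU RNA.

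Phc2 rose in both assays, by 0.55 in mRNA level and 0.68 in nascent RNA. Phc3 had 20.6, 19.3 and 38.8 CPM in ESC and 20.1, 22.8 and 21.5 CPM in EpiLC total RNA, where ESC replicate 3 was nearly double the others. In 4sU RNA it had 116, 95.9 and 87.6 CPM in ESC and 71.4, 70.8 and 71.2 CPM in EpiLC. The nascent change of -0.48 just passed (limma-voom adjusted p = 0.0477), and the mRNA change did not (-0.15, limma-voom adjusted p = 0.531). Scmh1, an SCM protein that joins canonical PRC1, did not pass in either assay, at 0.33 in mRNA level and 0.10 in nascent RNA. Without both ESC replicate 3 libraries the mRNA change of Scmh1 passed, at 0.48 (limma-voom adjusted p = 0.0418).

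Of the 6 variant PRC1 genes 4 were higher and 2 lower in mRNA level by the adjusted p alone, where 63.5% of all genes passed, and 1 was called over 2-fold. Yaf2 and Rybp are paralogues that take the same place in variant PRC1, and they moved in opposite directions. Yaf2 had 12.2, 10.7 and 12.7 CPM in ESC and 33.5, 32.8 and 31.0 CPM in EpiLC total RNA. In 4sU RNA it had 9.61, 8.23 and 8.41 CPM in ESC and 29.9, 29.7 and 30.9 CPM in EpiLC. The cell types were far apart in both assays, with log2 changes of 1.47 ± 0.09 (limma-voom adjusted p = 6.73e-09) and 1.77 ± 0.15 (limma-voom adjusted p = 4.37e-07). Rybp had 39.7, 43.1 and 39.9 CPM in ESC and 27.7, 31.8 and 29.1 CPM in EpiLC total RNA. In 4sU RNA it had 155, 167 and 143 CPM in ESC and 101, 98.8 and 93.2 CPM in EpiLC. These did not overlap either, and Rybp fell by 0.47 ± 0.09 (limma-voom adjusted p = 3.71e-04) and 0.67 ± 0.09 (limma-voom adjusted p = 1.84e-05) on the log2 scale.

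Kdm2b and Bcor belong to the PCGF1 complex, in which Kdm2b binds unmethylated CpG islands. Kdm2b had 104, 99.4 and 113 CPM in ESC and 168, 162 and 172 CPM in EpiLC total RNA, and rose by 0.67 in both mRNA level and nascent RNA. Bcor had 46.1, 43.4 and 57.8 CPM in ESC and 81.9, 77.0 and 82.8 CPM in EpiLC total RNA, and rose by 0.74 ± 0.11 in mRNA level. Its nascent change of 0.21 did not pass (limma-voom adjusted p = 0.138), although it did without both ESC replicate 3 libraries. L3mbtl2, of the PCGF6 complex, had 298, 269 and 238 CPM in ESC and 166, 181 and 195 CPM in EpiLC total RNA. It fell by 0.57 in mRNA level and 0.52 in nascent RNA on the log2 scale. Auts2, a partner of PCGF3 and PCGF5 complexes, had 9.68, 9.87 and 13.8 CPM in ESC and 16.4, 16.96 and 18.8 CPM in EpiLC total RNA, a rise of 0.71 ± 0.15. Its 4sU libraries overlapped, at 95.5, 93.4 and 75.1 CPM in ESC and 90.5, 91.3 and 83.7 CPM in EpiLC.

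The balance of paralogues was followed as the share of each family's RNA per exonic length, which does not depend on library scaling. It does depend on the exonic lengths, and whether these match the transcripts expressed was not tested. In total RNA, Yaf2 made up 43.8% ± 3.25 (SD, n = 3) of the Rybp and Yaf2 sum in ESC and 74.7% ± 1.59 in EpiLC. In 4sU RNA its share was 13.2% ± 1.34 and 45.3% ± 1.53. The shares did not overlap, and the log2 ratio of Rybp over Yaf2 differed between EpiLC and ESC by -1.92 in total and -2.44 in 4sU RNA. Mtf2 held 98.2% ± 0.0756 of the Polycomb-like RNA in ESC and 92.4% ± 1.15 in EpiLC total RNA, as the share of Phf19 went from 0.761% ± 0.0400 to 4.78% ± 0.472.

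The PCGF family was led per exonic length by Pcgf6, with 56.9% ± 1.20 of its RNA in ESC and 51.4% ± 1.53 in EpiLC total RNA. This lead rests on the division by exonic length, 2098 bases for Pcgf6 and 9008 for Pcgf3. In mean CPM, Pcgf3 was above Pcgf6 in ESC 4sU (133 and 57.5), EpiLC 4sU (168 and 84.7) and EpiLC total RNA (128 and 98.7). In ESC total RNA it was not (94.1 and 101). Pcgf5 went from 9.02% ± 0.702 to 15.97% ± 0.959, and Pcgf3 from 12.4% ± 0.739 to 15.6% ± 0.317. Bmi1 went from 5.55% ± 0.476 to 3.60% ± 0.300. The log2 ratio of Pcgf5 over Bmi1 differed by 1.44 in total and 2.07 in 4sU RNA, with no overlap between the cell types. Cbx7 held 60.4% ± 5.09 and 58.4% ± 0.357 of the CBX RNA, and Phc1 held 85.3% ± 1.11 and 90.1% ± 0.593 of the PHC RNA. Ezh2 held 86.5% ± 1.78 and 88.7% ± 0.5004 of the EZH RNA, and Rnf2 91.4% ± 1.305 and 87.8% ± 1.37 of its pair with Ring1. The exact permutation test over 3 and 3 libraries, two-sided, cannot go below p = 0.1. Of 64 tests (32 pairs, 2 assays) 47 gave that p, and the smallest p adjusted over the 64 was 0.136, so no ratio passed. That p means that the ratios of the cell types did not overlap, and the share for pairs of other genes was not counted. Many pairs share a gene, so the 64 are not separate results. The pair of Jarid2 and Aebp2, which are not paralogues, was among them.

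**Figure D3:**
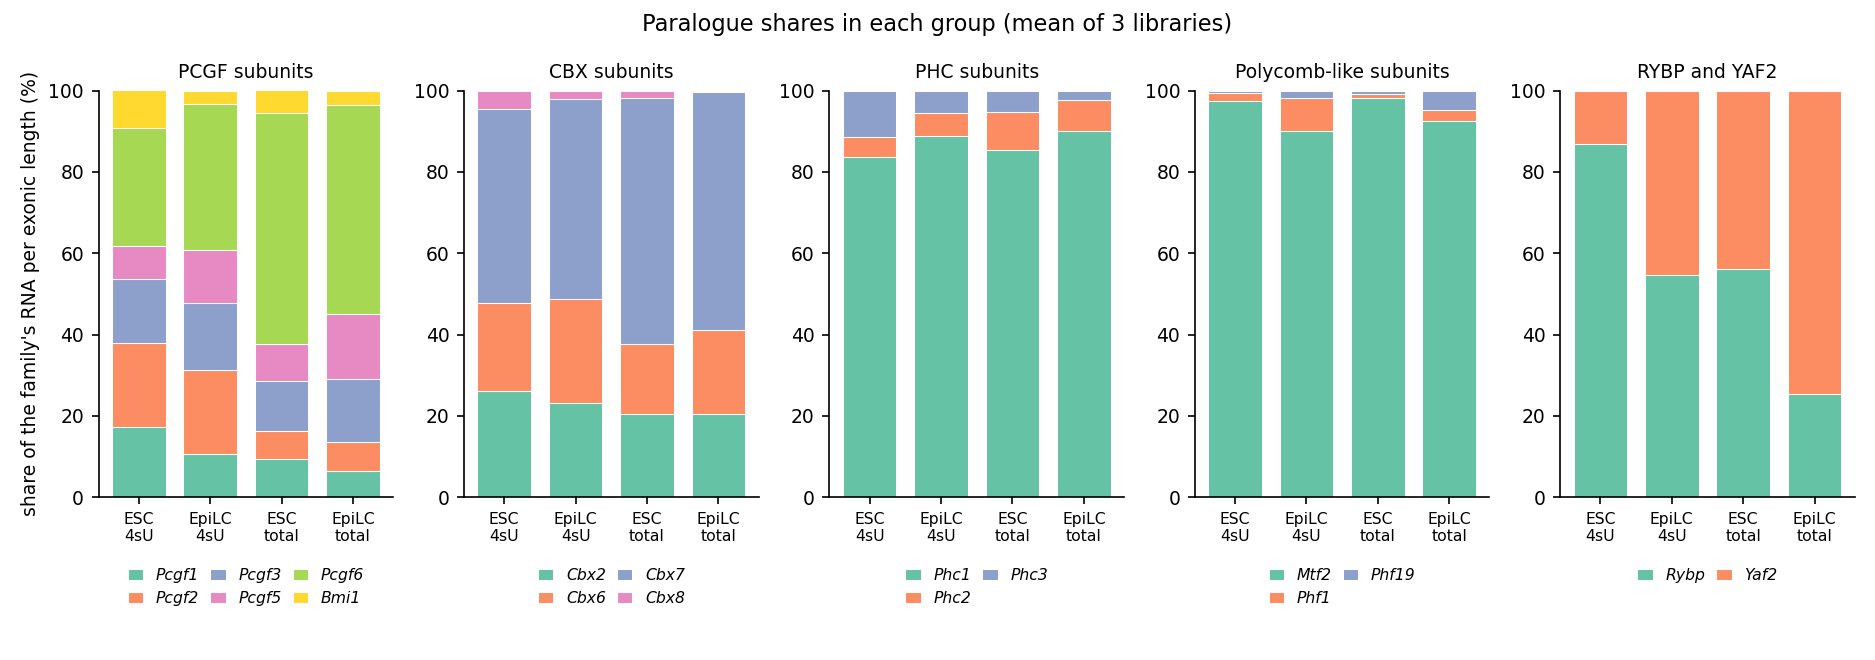
Share of each paralogue in the summed RNA of its family (y axis, percent of reads per exonic length, mean of 3 libraries) in ESC and EpiLC 4sU and total libraries, for the PCGF, CBX, PHC, Polycomb-like and Rybp/Yaf2 families. Yaf2 takes the larger share of its pair in EpiLC total RNA (74.7%) and Rybp in ESC total RNA (56.2%). Per exonic length, Pcgf6, Cbx7, Phc1 and Mtf2 lead their families in each of the 4 groups.

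The interaction of cell type and assay asked whether the mRNA change of a gene departed from its nascent change, which the study reads as a change of mRNA stability. No Polycomb gene was called at over 2-fold by limma-voom, against 1.54% of all genes (1.24% higher, 0.305% lower). At an unadjusted p under 0.05 there were 5 higher and 8 lower (15.2% and 24.2%, against 15.1% and 7.84% of all genes), edgeR's quasi-likelihood test called 0, and DESeq2 called 1 (Phf1 stability change -1.08, adjusted p = 0.0453). By the adjusted p alone 1 was higher and 2 were lower, or 9.09%, against 4.60% of all genes (2.72% higher, 1.88% lower). Without both ESC replicate 3 libraries there were 6 higher and 5 lower (18.2% and 15.2%, against 13.7% and 6.69% of all genes), and no gene of the former was lost. The median of the 33 was -0.01, and that of all genes 0.11. By role it was -0.31 for the PRC2 core, -0.26 for the accessory subunits, -0.32 for the ligases and 0.02 for PCGF. It was 0.28 for CBX, 0.28 for PHC and SCM and 0.10 for variant PRC1. No PRC2 gene passed the adjusted p in the main fit. Without both ESC replicate 3 libraries the PRC2 genes Eed, Rbbp7 and Phf1 passed, each lower (limma-voom adjusted p = 0.0174, 0.020 and 0.0376). Bcor, Bmi1, Cbx2, Phc1 and Phc3 also passed there but not in the main fit, each higher.

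The genes that passed in the main fit were Rnf2, Pcgf6 and Auts2. The log2 of total over 4sU RNA, taken over same-numbered libraries for display, was for Rnf2 0.42, 0.17 and 0.65 in ESC and -0.21, -0.23 and -0.25 in EpiLC. All EpiLC values were below all ESC values, and the change was -0.63 ± 0.16 (limma-voom adjusted p = 0.0385). For Pcgf6 the values were 0.80, 0.66 and 0.97 in ESC and 0.08, 0.27 and 0.31 in EpiLC, again apart, with a change of -0.58 ± 0.13 (limma-voom adjusted p = 0.0226). For Auts2 they were -3.30, -3.24 and -2.446 in ESC and -2.46, -2.43 and -2.15 in EpiLC. Here ESC replicate 3 lay just above the lowest EpiLC value, so the groups overlapped in this pairing. For each gene, overlap or separation of these values depends on the numbering, which the labels do not tie to an extract. The change of Auts2 was 0.70 ± 0.19 (limma-voom adjusted p = 0.0483). Leaving out 1 library at a time, the adjusted p stayed under 0.05 in 3 of 12 fits for Rnf2, 8 of 12 for Pcgf6 and 2 of 12 for Auts2. Rnf2, Auts2, Eed, Rybp, Kdm2b, Phc3 and Phf1 overlap other annotated genes on the same strand, and the part of these in their values, the Rybp and Yaf2 shares included, was not tested.

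Within a cell type, the 33 genes spanned a wide range of relative stability, 27.7-fold in ESC and 17.2-fold in EpiLC. Auts2 was lowest in both, at -3.00 ± 0.48 (SD, n = 3) in ESC and -2.35 ± 0.17 in EpiLC on the log2 scale. L3mbtl2 was highest, at 1.80 ± 0.18 and 1.76 ± 0.18, near the 91.98th and 91.7th percentile of all genes. Rbbp4 and Rbbp7 were also high in ESC (1.39 and 1.53), and Rybp (-1.92), Pcgf2 (-1.79), Phc3 (-1.99) and Scmh1 (-1.78) low. Over same-numbered libraries, the median of the 33 was below that of all genes by 0.07 ± 0.04 in ESC and 0.35 ± 0.04 in EpiLC (SD, n = 3). In ESC 18 genes and in EpiLC 21 of 33 lay below the median of all genes. The labels do not say that a number marks 1 extract, so these SDs, but not the means, depend on the numbering. No test was made of these levels, and total over 4sU RNA has no absolute scale.

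**Figure D4:**
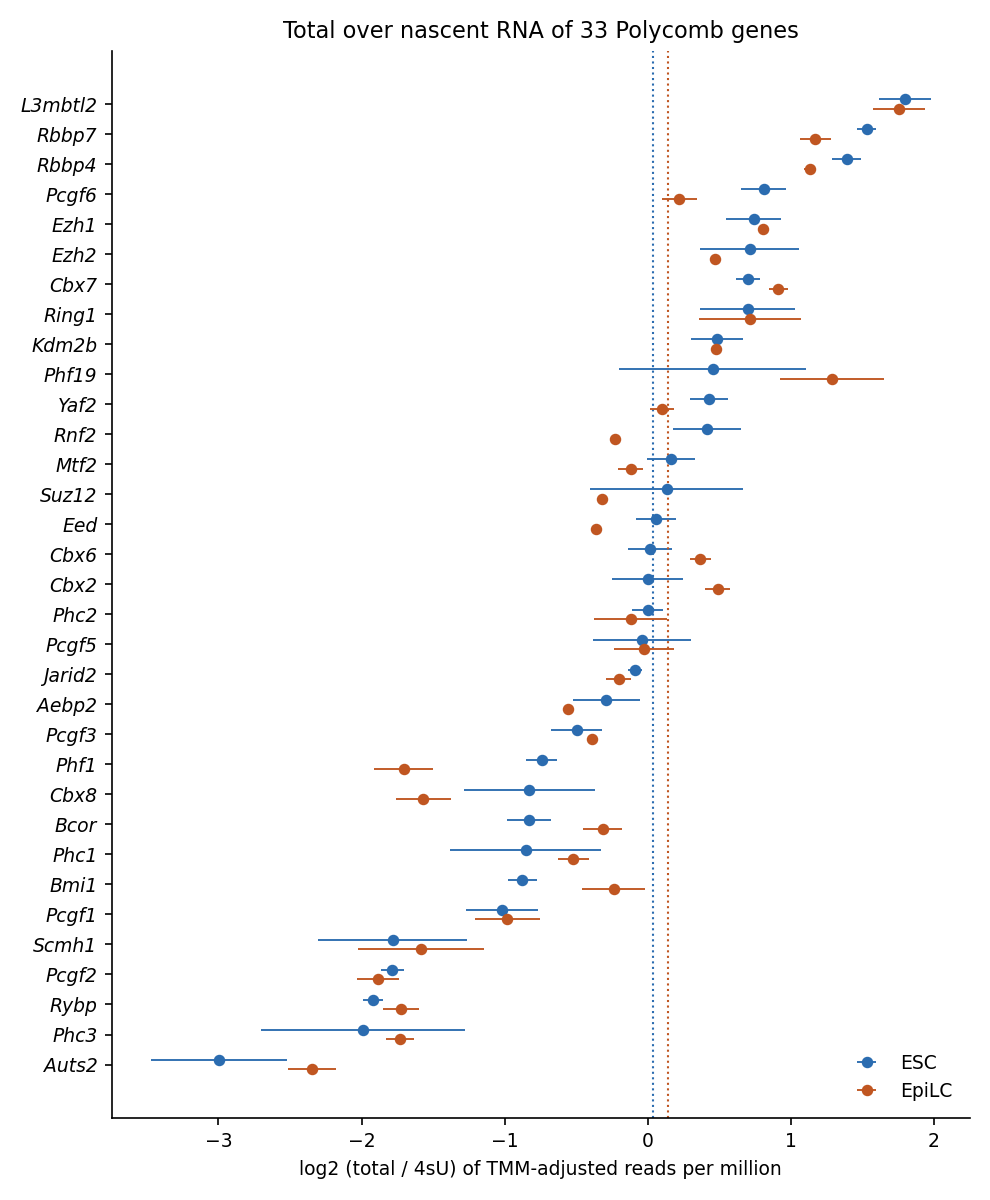
Relative mRNA stability of the 33 Polycomb genes (x axis, log2 of total over 4sU RNA in TMM-adjusted CPM) in ESC (blue) and EpiLC (orange), ordered by the ESC value. Points are means and bars SDs of 3 same-numbered library pairs, dotted lines are the medians of all genes (0.04 in ESC and 0.14 in EpiLC); Rnf2 and Pcgf6 are lower in EpiLC and Auts2 is lowest in both.

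Other genes of the pathway were read from the same fits, where 16.3% of all genes were called higher and 11.2% lower in mRNA level. Of 22 tested partners of PRC1, 1 was called in mRNA level, and it was lower. This was Wdr5, a WD40 protein shared with histone methyltransferases, which went from 501.5 to 243.8 CPM (log2 change -1.04). By the adjusted p alone 5 of the 22 were higher and 10 lower (31.4% and 32.1% of all genes). Of 6 tested partners of PRC2, 2 were called, both lower. They were Epop, which joins PRC2.1 to elongins, at 161.5 and 61.9 CPM, and Zfp518b, at 154.4 and 73.3 CPM. Of 11 genes that oppose Polycomb, 3 were called, each higher, which is 27.3%, against 27.6% of all genes called in either direction. Among them were Asxl3, a cofactor of the H2A deubiquitinase Bap1, at 1.602 and 9.84 CPM, and Kdm6b, a demethylase of lysine 27 of histone H3, at 12.9 and 27.3 CPM.

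Of 70 listed developmental genes known as Polycomb targets, 21 passed the filter on low counts and 49 did not. A gene could pass through the cell type in which it was high, and then had to differ, so levels are given here. Calls of these genes are not read as a result, and the genes named are the called ones with the largest changes. Wt1 went from 0.343 to 14.03 CPM and Pax6 from 0.222 to 10.2 CPM, as mean levels in total RNA. Tbx3, which is also a naive ESC marker, went from 270.0 to 3.21 CPM, and Hoxc12 from 3.02 to 0.0331 CPM. In EpiLC total RNA Hoxc12 had 0.0994 CPM in replicate 3 and 0 in the others.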

How the data were processed

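RNA was measured in 12 mouse libraries (ESC and EpiLC, 4sU and total RNA, 3 each) sequenced as single-end 50 bp reads. The authors deposited raw read counts per gene, made with cutadapt 1.14, unique STAR 2.5.3a alignments to mm10 and stranded featureCounts 1.5.3 over exons of GENCODE M14 without ribosomal RNA. Unique alignment can lower counts of genes with close copies. The 92 spike-in rows held 0 reads and gave no absolute scale. Symbols from GENCODE M21 matched 51274 gene IDs (99.6%).

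From these counts, genes that reached 3 CPM in 3 or more libraries entered a limma-voom fit (R 4.3.3 with limma 3.58.1, and TMM scaling by edgeR 4.0.16) with 4 group means, as in the methods of the study. Contrasts were EpiLC minus ESC in total RNA, the same in 4sU RNA, and their difference (stability). A call needed a Benjamini-Hochberg adjusted p under 0.05 over all genes tested and an absolute log2 change over 1. CPM are TMM-adjusted, and RPKM divide them by the exonic length of the table. Stability per library pair added 0.5 reads. The fit was tested on simulated data. Groups came from the sample titles. Counting error alone is covered by read depth, as reads had no molecular identifiers. The members, families and gene lists were chosen with earlier results of these data known. All 33 members are named, and from each other list up to 2 called genes with the largest rise and 2 with the largest fall in total RNA. Alternatives were other scalings, filters, tests (edgeR quasi-likelihood, DESeq2 1.42.0), quality weights, replicate blocks and left-out libraries. The alternative without both ESC replicate 3 libraries was added after seeing the data. Permutation tests and tables were made in Python 3.11.15 (pandas 2.3.3, scipy 1.17.1, numpy 2.4.6).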

Additional observations from a re-analysis of the deposited data

Results flagged for a closer look

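The mRNA change and the nascent change of Rnf2, Pcgf6 and Auts2 differed by a test of the difference itself (the interaction of cell type and assay, limma-voom adjusted p under 0.05). For Rnf2 the difference was -0.63, with a fall in mRNA level beside a nascent change near 0. For Pcgf6 it was -0.58, with a rise in nascent RNA beside an mRNA change near 0. For Auts2 it was 0.70, with a rise in mRNA level beside a nascent change near 0. Over the 12 fits that left out 1 library each, the difference ran from -0.83 to -0.56 for Rnf2, from -0.71 to -0.51 for Pcgf6 and from 0.54 to 0.82 for Auts2, and the highest adjusted p was 0.0922, 0.0584 and 0.161.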

How the results depend on the processing

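No direction reversed among values past an adjusted p of 0.05. Yaf2, Mtf2 and Eed in mRNA level and Yaf2 and Mtf2 in nascent RNA were called in each setting tried. Of 2310 values of single genes, 2251 kept their side of the threshold, 4 lost it and 55 gained it, mostly where the fold threshold was dropped. The count of Polycomb genes higher in mRNA level was 1, and 3 with library totals alone or sample quality weights, 10 with the adjusted p alone, 2 without both ESC replicate 3 libraries and 1 to 3 with 1 library left out (3 without ESC total replicate 3, 2 without EpiLC total replicate 2). The count lower was 3, 13 with the adjusted p alone and 2 to 3 with 1 library left out. In nascent RNA the higher count was 1, 8 with the adjusted p alone and 1 to 2 with 1 library left out, and the lower count 2, 9 and 1 to 2. Cbx8 joined the lower genes with edgeR's quasi-likelihood test or DESeq2, and Eed with sample quality weights. Without both ESC replicate 3 libraries the lower count was 3 (Eed gained). The higher count was 2 without EpiLC 4sU replicate 1 or 3 (Pcgf5 gained), and the lower count 1 without EpiLC 4sU replicate 1 (Bmi1 lost). For stability the higher count was 0, 1 with the adjusted p alone and 0 to 1 with 1 library left out (1 without ESC 4sU replicate 1, Phf19), and the lower count 0, 2 with the adjusted p alone and 1 with DESeq2 or quality weights. Other pathway genes higher in mRNA level numbered 11, and 20 with the adjusted p alone, and those lower numbered 9, 21 with the adjusted p alone and 16 with no filter on low counts. Of these, 8 higher and 6 lower were developmental genes, which the filter could select for a difference. The totals are therefore not read as a result, and over all genes 16.3% were called higher and 11.2% lower. The causes were not tested. Scaling moved the split of stability calls over all genes from 182 higher and 45 lower to 132 and 66 by median of ratios and 253 and 28 by library totals. The labels number the replicates alike. Yet correlations of same-numbered 4sU and total libraries were 0.21 to 0.46 in ESC and 0.02 to 0.09 in EpiLC. Not every library correlated best with its own number, so the numbers were not taken as pairs in the main fit. An alternative stability fit that paired same-numbered libraries of a cell type called 438 genes higher and 90 lower over all genes. With a block for the replicate number alone the Polycomb counts were 1 and 3 in mRNA level, 1 and 3 in nascent RNA (Cbx8 gained) and 0 and 0 for stability. Other pathway genes in mRNA level then numbered 11 and 10. Low depth limits genes such as Cbx8, Phf1, Scmh1 and Phf19, with at most 76, 109, 115 and 129 reads in any library.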
